A study of Mus musculus with 16 samples.

Results

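Endothelial identity genes are 35 mouse genes by which the cells lining blood vessels are usually recognised, and they were followed in demyelinated lesions of the spinal cord from mice with a free or a locked running wheel. The members were the rows of the deposited count table whose Ensembl gene ID carries one of the 35 symbols. All 35 were found among 46078 genes, and 34 passed the filter on low counts that kept 15096 genes for testing. By vessel type, 28 were grouped as pan-endothelial, 5 with veins or venous capillaries (Emcn, Slc38a5, Vwf, Flt4 and Plvap) and 2 with arteries (Sox17 and Nos3). Of the venous group, Flt4 is also a receptor of lymphatic vessels.

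RNA was sequenced from 16 lesions of C57BL/6 mice aged 8 to 12 weeks, in 4 groups of 4 libraries. The groups were exercise at day 10 (replicates 13, 17, 18 and 19), control at day 10 (2, 3, 4 and 5), exercise at day 5 (1, 2, 7 and 12) and control at day 5 (1, 2, 5 and 6). Exercise mice could turn their wheel freely, and the wheel of control mice was locked. Every mouse in all 4 groups, controls included, was injected with lysolecithin, a lipid that dissolves the myelin around axons, so no group shows the uninjured cord. The lesions were cut out of frozen cord by laser microdissection and their RNA was amplified before sequencing. The labels do not say from which event the days are counted, or that each library is a separate animal. The p-values therefore reflect variation among libraries, which may be partly technical.

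Endothelial cells form the inner wall of all blood vessels. In the brain and spinal cord they are sealed to each other by junction proteins and carry their own transporters, which together make the barrier between blood and nervous tissue. Vascular endothelial growth factor (VEGF) receptors drive the growth and survival of these cells. Angiopoietins, acting on the Tie receptors, set how quiet or how open the vessel is. ETS and SoxF transcription factors keep the endothelial programme on, and arteries, capillaries and veins each add genes of their own.

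Library totals ran from 8.126 to 13.93 M counts. Values below are CPM, read counts scaled to a common library size, or, where levels of different genes are compared, CPM per kilobase of exon (RPKM). Genes of cord tissue were high in every library: Gfap, of astrocytes, had 1730 to 3670 CPM and Mbp, of myelin, 4120 to 10300 CPM. Endothelial RNA was present throughout, since 34 of the 35 members had at least 1 count in each of the 16 libraries. The exception was Plvap, which encodes the diaphragm protein of leaky vessels and is normally low where the blood-brain barrier is closed. It had 0, 0.586, 0.532 and 0.609 CPM in exercise libraries at day 10, 0.456, 0.273, 0.652 and 0.409 CPM in control libraries at day 10, 1.35, 0.633, 1.64 and 0.552 CPM in exercise libraries at day 5, and 0.239, 0, 0.267 and 0.291 CPM in control libraries at day 5. At day 5 every exercise library lay above every control library, as in 502 of the 15096 genes kept for testing. This separation of Plvap rests on few counts, 15, 5, 17 and 6 in exercise libraries and 3, 0, 3 and 4 in control libraries. The authors' deposited table for day 5 gives Plvap a log2 fold change of 2.39 and an unadjusted p of 0.00455, with no adjusted p. At day 10 the groups overlapped. The filter on low counts removed Plvap before testing, and a count of 0 allowed up to 0.279 CPM in the exercise library and 0.25 CPM in the control library, from counting error alone.

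Per length, the members spanned a wide range. Averaged over the 16 libraries, Itm2a, which encodes a small membrane protein, had the highest level at 110 RPKM, followed by the ETS factor Fli1 at 67.7 RPKM, the adhesion receptor Adgrl4 at 18.6 RPKM, the sialomucin Cd34 at 15.6 RPKM and the receptor Cd93 at 11.8 RPKM. Fli1, Cd34, Cd93 and Flt1 are also made by blood-derived or myeloid cells, which are abundant in such lesions. Other members commonly used to mark vessels lay lower. Cdh5 (VE-cadherin, the protein of endothelial adherens junctions) averaged 4.99 RPKM and Kdr (the main signalling VEGF receptor) 3.53 RPKM. Pecam1 (the junction protein CD31) averaged 1.91 RPKM and Tek (the angiopoietin receptor Tie2) 0.867 RPKM. Flt4, a VEGF receptor of lymphatic and sprouting vessels, was the lowest at 0.0978 RPKM.

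By their mean log2 CPM, the members were lowest in the lesions of exercising mice at day 10. The mean log2 CPM over the 34 members was 2.85, 2.93, 3.12 and 3.32 in exercise libraries 13, 17, 18 and 19 at day 10, against 3.62, 3.63, 3.56 and 3.43 in control libraries 2, 3, 4 and 5. At day 5 it was 3.43, 3.80, 3.68 and 3.58 in exercise libraries 1, 2, 7 and 12, and 3.93, 3.71, 3.51 and 3.52 in control libraries 1, 2, 5 and 6. By this mean, the 4 exercise libraries of day 10 were the 4 lowest of all 16 and overlapped no other group, whereas the other 3 groups overlapped each other. Without Cd34, Fli1, Flt1 and Cd93 the exercise libraries of day 10 were again the 4 lowest, with group means of 2.56 ± 0.24 in exercise lesions at day 10 and 3.16 ± 0.12 in control lesions at day 10 (SD, n = 4 each). The summed CPM of the members, in which the most abundant genes weigh most, separated the groups less. It was 906 to 1095 CPM in exercise libraries and 1099.6 to 1154 CPM in control libraries at day 10, and 984 to 1199.98 CPM in exercise libraries and 1036 to 1337 CPM in control libraries at day 5, so that exercise at day 10 overlapped both groups of day 5. Without the same 4 genes the sums at day 10 also overlapped, at 356 to 599 CPM in exercise libraries and 595 to 737 CPM in control libraries. In whole tissue, fewer endothelial cells and less of these RNAs per endothelial cell cannot be told apart.

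**Figure D1:**
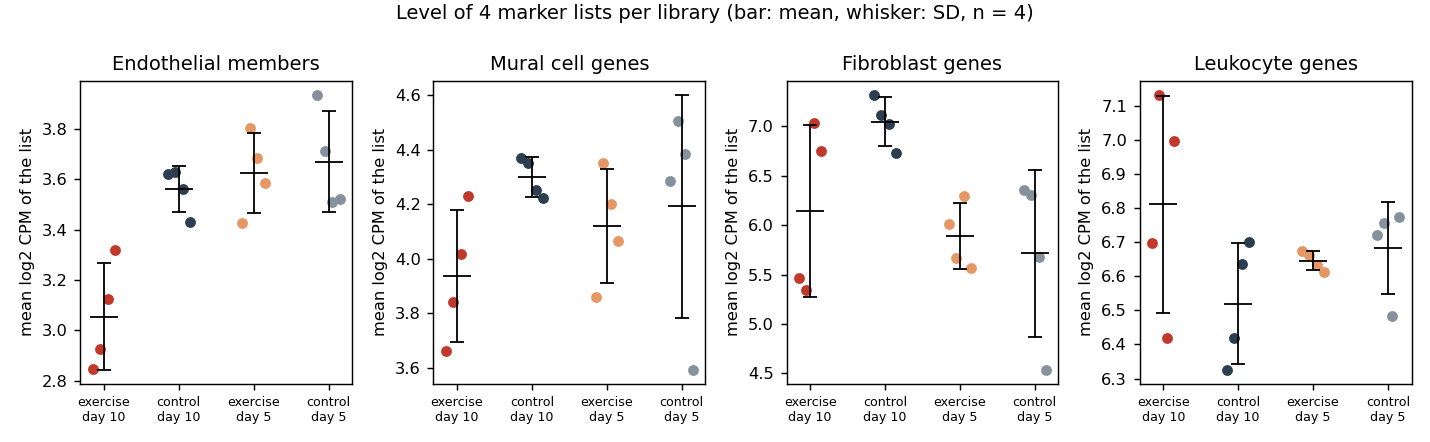
Level of 4 lists of marker genes in each library: the y axis of each panel is the mean log2 CPM over the tested genes of that list, points are libraries, the bar is the group mean and the whisker the SD (n = 4 libraries per group). For the endothelial members the exercise libraries of day 10 lie between 2.85 and 3.32 and all others at 3.43 or above; the y axes do not start at 0 and differ between panels.

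Whether running changed the endothelial genes was asked at each day. At day 10, 29 of the 34 members had a fitted fold change below 0 in exercise against control lesions, where 47.9% of all genes did, and the median was -0.54 on the log2 scale against 0.01 for all genes. No member passed the test (edgeR's quasi-likelihood test, adjusted p under 0.05 over all 15096 genes), a threshold that 29 of all 15096 genes, or 0.192%, passed. At an unadjusted p under 0.05, 14 members were lower and 2 were higher, beside 5.56% of all genes lower and 7.25% higher. In 8 members every exercise library lay below every control library, as it did for 2.58% of all genes, and in 1 member, Cd34, every exercise library lay above, as for 3.3%. Limma-voom called 0 members. DESeq2 called 6, beside 227 of all genes: Esam, Ly6c1, Angpt2, Adgrl4 and Slc38a5 as lower and Cd34 as higher. Without exercise replicate 18, edgeR called Itm2a and Adgrl4, and without any other library it called none.

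Of the 12 tested surface and junction genes, 11 were fitted below 0 at day 10, with a median of -0.54. Esam, a cell adhesion molecule of endothelial tight junctions, had 7.08, 9.66, 12.8 and 10.2 CPM in exercise lesions, against 19.1, 16.9, 15.4 and 16.3 CPM in control lesions. All 4 exercise values of Esam lay below all 4 control values, with a log2 fold change of -0.77 ± 0.21 (SE) and an edgeR adjusted p of 0.142. Emcn, endomucin, a sialomucin of venous and capillary endothelium, had 6.71, 5.17, 6.74 and 6.49 CPM in exercise lesions, against 9.04, 10.1, 9.87 and 11.1 CPM in control lesions. The Emcn groups also did not overlap, with a log2 fold change of -0.67 ± 0.20 and an edgeR adjusted p of 0.173.

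Mmrn2, multimerin 2, an extracellular matrix protein that binds Cd93 and Clec14a, had 1.21, 1.46, 1.95 and 2.54 CPM in exercise lesions at day 10, against 3.42, 3, 2.61 and 3.44 CPM in control lesions. Its partner Cd93 had 21.5, 35.3, 36.0 and 38.6 CPM in exercise lesions, against 48.5, 47.9, 39.0 and 39.9 CPM in control lesions. In both genes the groups were separate by a small gap, and the edgeR adjusted p was 0.314 for Mmrn2 and 0.531 for Cd93. Pecam1 had 4.19, 10.1, 7.89 and 8.02 CPM in exercise lesions, against 10.9, 10.4, 8.94 and 7.78 CPM in control lesions, and Cdh5 had 8.10, 7.03, 24.3 and 16.6 CPM, against 21.6, 16.6, 21.7 and 14.6 CPM. For these classical markers the groups overlapped, with log2 fold changes of -0.34 ± 0.24 for Pecam1 and -0.41 ± 0.38 for Cdh5 and edgeR adjusted p of 0.584 and 0.692.

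Ly6a, a lipid-anchored surface protein, had 7.45, 7.12, 8.42 and 10.6 CPM in exercise lesions at day 10, against 10.3, 11.5, 13.4 and 14 CPM in control lesions, which touch at a single library on each side. Its neighbour Ly6c1 averaged 14.6 ± 2.1 CPM in exercise lesions and 24.5 ± 5.8 CPM in control lesions (SD, n = 4 each) without overlap, with a log2 fold change of -0.74 ± 0.17 and an edgeR adjusted p of 0.0824. Counts of Ly6c1 are uncertain because reads could be shared with its near-identical copy Ly6c2. Cd34 stood against the rest of the group, with 183, 181, 164 and 155 CPM in exercise lesions, against 102, 84.4, 134 and 115 CPM in control lesions. Its log2 fold change was 0.65 ± 0.16, with an edgeR adjusted p of 0.104.

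Among the VEGF receptors, Kdr and Flt1 had fold changes of opposite sign at day 10. Kdr had 12.6, 13.5, 12.8 and 25.4 CPM in exercise lesions, against 44.3, 53.2, 11.6 and 13.8 CPM in control lesions. The control lesions fell into 2 high and 2 low libraries and the low ones matched the exercise lesions, so that the log2 fold change of -0.94 ± 0.51 had an edgeR adjusted p of 0.456. Flt1, which binds VEGF but signals weakly, had 87.1, 184, 94.3 and 119 CPM in exercise lesions, against 84.8, 67.1, 80.6 and 89.0 CPM in control lesions. Its log2 fold change of 0.59 ± 0.23 had an edgeR adjusted p of 0.296 and was 0.32 without exercise replicate 17. Flt4 lay between 0.0887 and 1.02 CPM in exercise lesions and between 0.0819 and 1.30 CPM in control lesions, and a difference was not detectable at this depth.

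All 4 genes of the angiopoietin and Tie system had fitted values below 0 at day 10, with a median of -0.87. Angpt2, a ligand released by endothelial cells that mostly antagonises Tie2 and loosens vessels, had the largest fold change of any member at day 10 (gene at chr8:18690263-18741562 on GRCm38, minus strand). It had 3.07, 1.95, 3.10 and 7.10 CPM in exercise lesions, against 16.1, 18, 10.1 and 14.1 CPM in control lesions. Its fitted level was 3.84-fold lower with exercise, without overlap (log2 fold change -1.94 ± 0.44, edgeR adjusted p = 0.0801). Its receptor Tek had 2.42, 3.32, 1.77 and 2.33 CPM in exercise lesions, against 4.48, 6.45, 4.37 and 2.70 CPM in control lesions, which overlapped in their extremes (-0.87 ± 0.30, edgeR adjusted p = 0.247). Tie1, the partner of Tek, averaged 1.52 ± 0.44 CPM in exercise lesions and 2.8 ± 1.1 CPM in control lesions (SD, n = 4 each). Ptprb, the phosphatase that switches Tie2 off, averaged 40.7 ± 7.1 CPM in exercise lesions and 50.2 ± 12.2 CPM in control lesions, a difference within the SD of the controls.

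The transcription factors gave no common direction. Erg, an ETS factor that keeps the junction genes active, had 2.42, 1.07, 1.77 and 1.42 CPM in exercise lesions at day 10, against 3.42, 1.64, 2.51 and 4.01 CPM in control lesions, with overlapping groups and an edgeR adjusted p of 0.378. The arterial factor Sox17 had 1.49, 1.56, 3.10 and 3.96 CPM in exercise lesions, against 2.81, 3.09, 1.68 and 3.52 CPM in control lesions, again with full overlap. Fli1 (log2 fold change 0.10 ± 0.13) and Sox7 (0.02 ± 0.44) were close to 0, and Sox18 was at -0.97 ± 0.55 with an edgeR adjusted p of 0.474.

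All 7 of the other receptors and transporters had fitted values below 0 at day 10. Slc38a5, an amino acid transporter of the blood-brain barrier, had 3.07, 6.93, 3.10 and 3.15 CPM in exercise lesions, against 9.19, 8.27, 12.1 and 10.4 CPM in control lesions. Of the exercise libraries, only replicate 17 came near the controls, and the log2 fold change was -1.30 ± 0.31 with it and -1.68 without it (edgeR adjusted p 0.091 and 0.0702). Adgrl4 had 40.3, 38.4, 54.8 and 62.1 CPM in exercise lesions, against 87.6, 102, 89.2 and 102 CPM in control lesions, a clear gap that came closest of all members to the threshold (-0.96 ± 0.20, edgeR adjusted p = 0.0553). Adgrl4 passed it with upper-quartile scaling, without the filter on low counts and without exercise replicate 18. Calcrl, which with Ramp2 forms the adrenomedullin receptor, was nearly level, at 34.9 ± 6.1 CPM in exercise lesions and 38.6 ± 5.0 CPM in control lesions (SD, n = 4 each). Robo4, Adgrf5, Eng and Ramp2 overlapped between the groups, with log2 fold changes from -1.07 ± 0.49 for Robo4 to -0.16 ± 0.20 for Eng.

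None of the 3 secreted proteins and enzymes passed the test at day 10. Vwf, the clotting protein von Willebrand factor, had 8.85, 9.86, 12.7 and 10.1 CPM in exercise lesions at day 10, against 13.1, 5.73, 9.12 and 12.3 CPM in control lesions, a log2 fold change of 0.04 ± 0.23. Egfl7 (-0.20 ± 0.34) and the nitric oxide synthase Nos3 (-0.62 ± 0.38) also overlapped. By vessel type, the medians were -0.54 for the 28 pan-endothelial members, -0.51 for the 4 tested venous members and -0.38 for the 2 arterial members, with no member of any type passing the test. The authors' deposited table for day 10, which leaves out exercise replicate 17, has 30 of the 35 members below 0. The share of all its genes below 0 was not counted. It gives 34 members an adjusted p, 5 of them under 0.05, beside 179 of the 19985 genes listed. In the authors' deposited table those 5 are Slc38a5 (log2 fold change -1.69, adjusted p 5.97e-06), Adgrl4 (-0.87, 8.74e-05), Angpt2 (-1.74, 0.000266), Cd34 (0.61, 0.0242) and Ly6c1 (-0.83, 0.0277).

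**Figure D2:**
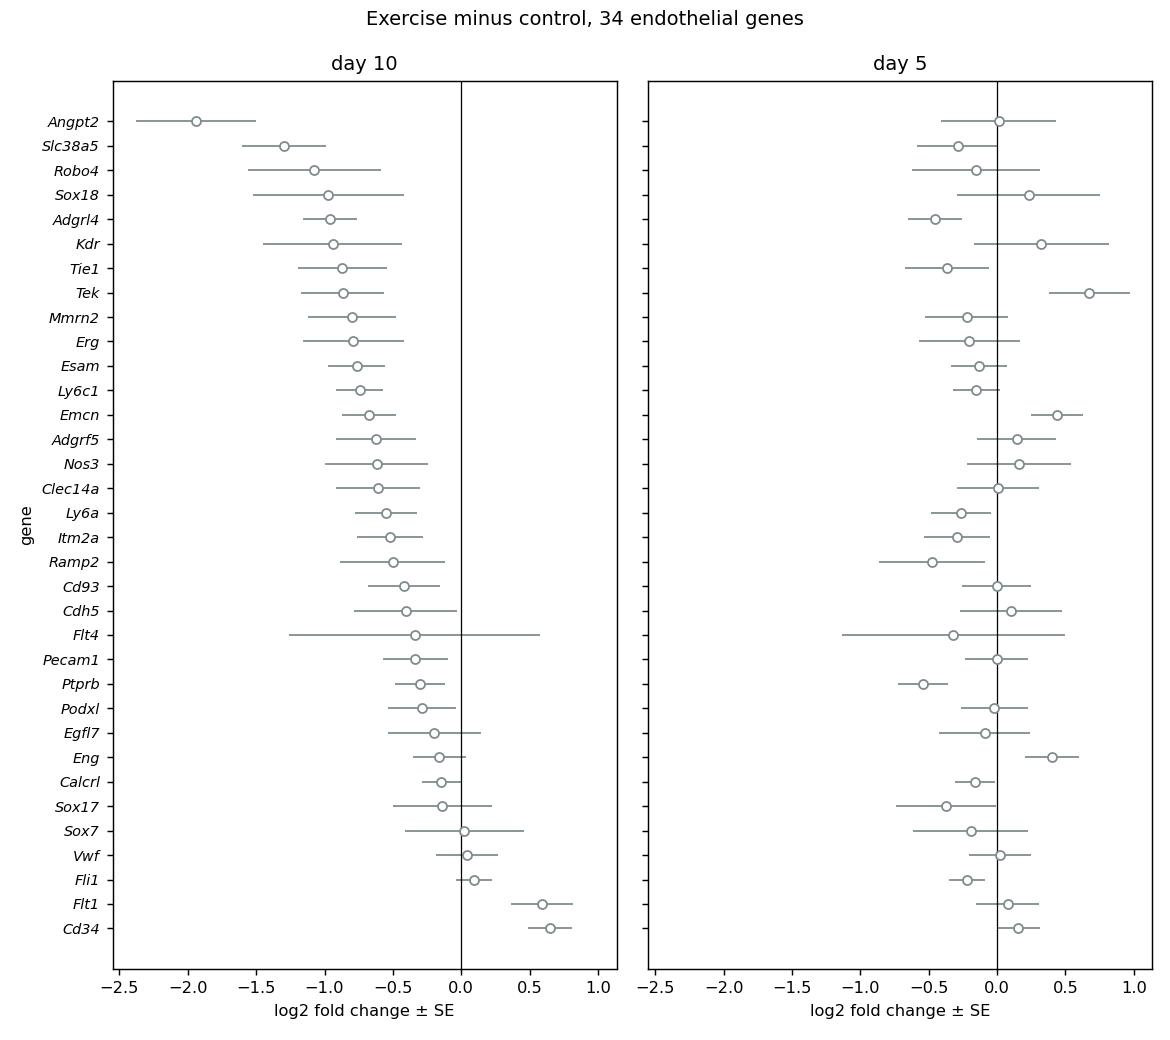
Log2 fold change of exercise against control for the 34 tested members at day 10 (left) and day 5 (right), with genes down the page in the order of the day 10 values and bars showing 1 SE of the edgeR fit. At day 10, 29 of 34 points lie left of 0, from -1.94 for Angpt2, and Cd34 lies farthest right at 0.65; at day 5, 21 of 34 lie left of 0; no point passed the adjusted threshold at either day.

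At day 5 the members showed no common direction. Of the 34 members, 21 were below 0, beside 48.4% of all genes, with a median of -0.11 on the log2 scale. EdgeR called 0 members and 0 genes (0%), and limma-voom and DESeq2 called 0 members. At an unadjusted p under 0.05, 2 members were lower (Ptprb and Adgrl4) and 2 higher (Emcn and Tek), beside 5.12% and 4.9% of all genes. In Ptprb alone did every exercise library lie below every control library, with 36.4 ± 5.7 CPM in exercise lesions and 53.0 ± 10.6 CPM in control lesions (SD, n = 4 each); 3.97% of all genes did the same. Tek had 4.24, 7.47, 5.21 and 6.17 CPM in exercise lesions at day 5, against 3.90, 2.50, 4.54 and 3.49 CPM in control lesions, with 1 library of each group crossing over. The authors' deposited table for day 5 gives 23 of the 35 members an adjusted p, none of them under 0.05. Of the 19985 genes it lists, 271 were under it. Every exercise library of day 5 had fewer counts (8.126 to 10.93 M) than any control library (11.2 to 13.93 M) and a higher share of the mitochondrial ribosomal RNA mt-Rnr2 (10.91% to 12.94%, against 8.055% to 10.28%), whose part in these values was not tested.

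The exercise libraries of each day serve in these comparisons and in the next, so the results share samples. In exercise lesions, day 10 set against day 5 gave the calls among the members: 9 of the 34 fell at day 10 and 1 rose (edgeR adjusted p under 0.05), or 26.5% lower and 2.94% higher, where 4.9% of all 15096 genes fell and 5.17% rose. The members that fell were Pecam1, Emcn, Esam, Ly6a, Mmrn2, Cd93, Tek, Adgrl4 and Slc38a5, and the member that rose was Cd34. In all, 26 of 34 members were below 0, beside 49.4% of all genes, with a median of -0.65. In 10 members every library of day 10 lay below every library of day 5, as in 7.09% of all genes.

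The junction and surface genes gave 6 of the 9 decreases. Pecam1 lay at 4.19 to 10.1 CPM at day 10, with every value below the 16.8, 12.4, 19.4 and 12.3 CPM of day 5 (log2 fold change -1.02 ± 0.24, edgeR adjusted p = 0.0103). Emcn, at 5.17 to 6.74 CPM at day 10, lay far below the 12.0, 17.2, 14.6 and 14.7 CPM of day 5 and was 2.32-fold lower at day 10 (-1.22 ± 0.20, edgeR adjusted p = 0.000941). Cd93 had the largest decrease of the 34: its 21.5 to 38.6 CPM at day 10 stood against 83.6, 123, 174 and 98.0 CPM at day 5, a 3.64-fold lower level at day 10 (-1.86 ± 0.27, edgeR adjusted p = 0.000443). Cd93 (chr2:148436640-148443563), like Pecam1 (chr11:106654217-106750628), lies on the minus strand of GRCm38 in the GENCODE annotation. Cd93 marks vessels but also monocytes.

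Esam, at 7.08 to 12.8 CPM at day 10, lay just below the 13.3, 20.9, 16.6 and 15.7 CPM of day 5 (log2 fold change -0.74 ± 0.21, edgeR adjusted p = 0.0305). Mmrn2 reached at most 2.54 CPM at day 10, against 4.97, 2.66, 4.53 and 2.85 CPM at day 5 (-1.07 ± 0.32, edgeR adjusted p = 0.0403). Ly6a had 7.12 to 10.6 CPM at day 10, against 9.21, 17.9, 13.6 and 21.1 CPM at day 5, so that the lowest library of day 5 fell within the day 10 range (-0.88 ± 0.23, edgeR adjusted p = 0.0186). Esam, Mmrn2 and Ly6a were nearer the threshold than Pecam1, Emcn and Cd93, and their adjusted p reached 0.102, 0.108 and 0.0739 in the alternative that weakened each most.

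The receptor Tek fell to between 1.77 and 3.32 CPM at day 10, against 4.24 to 7.47 CPM at day 5, in exercise lesions (log2 fold change -1.22 ± 0.31, edgeR adjusted p = 0.0156). The rest of its pathway had edgeR adjusted p values above the threshold: Tie1 was at -0.89 ± 0.33 (0.0894), Angpt2 at -1.24 ± 0.44 (0.0848) and Ptprb at 0.16 ± 0.18 (0.639). Of the VEGF receptors, Kdr had 12.6 to 25.4 CPM at day 10, all below its 31.2, 73.9, 44.9 and 30.1 CPM at day 5, yet its spread kept it above the threshold (-1.49 ± 0.51, edgeR adjusted p = 0.079). Flt1 had 87.1 to 184 CPM at day 10, against 73.6, 63.6, 59.7 and 109 CPM at day 5, with overlap (0.66 ± 0.23, edgeR adjusted p = 0.073).

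Adgrl4, at 38.4 to 62.1 CPM at day 10, lay below the 65.8, 113, 83.5 and 70.5 CPM of day 5 in exercise lesions (log2 fold change -0.77 ± 0.20, edgeR adjusted p = 0.0201). Slc38a5 had 3.07 to 6.93 CPM at day 10, against 8.58, 12.0, 5.59 and 9.02 CPM at day 5, and overlapped through replicate 17 of day 10 (-1.11 ± 0.31, edgeR adjusted p = 0.0282). Cd34, the member that rose, had 155 to 183 CPM at day 10, all above the 96.0, 79.8, 75.9 and 116 CPM of day 5 (0.90 ± 0.16, edgeR adjusted p = 0.00185).

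No transcription factor or secreted protein passed the test in exercise lesions between the days. The day 10 values of Erg, Sox17 and Vwf, given above, overlapped those of day 5, which were 1.72, 2.41, 1.74 and 1.66 CPM for Erg, 1.81, 2.79, 1.74 and 1.84 CPM for Sox17 and 9.57, 14.1, 16.6 and 13.2 CPM for Vwf. Cdh5 had 7.03 to 24.3 CPM at day 10, against 21.2, 23.9, 34.8 and 17.1 CPM at day 5, and overlapped (-0.79 ± 0.38, edgeR adjusted p = 0.201).

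Calls for Pecam1, Emcn, Cd34 and Cd93 were kept in all 8 fits that left out 1 exercise library and in all 6 other alternatives. Tek was kept in 7 of the 8, Ly6a and Adgrl4 in 6, and Esam, Mmrn2 and Slc38a5 in 3. Without exercise replicate 2 of day 5, 5 members were called, since Esam, Ly6a, Tek, Adgrl4 and Slc38a5 lost their call; the other single libraries left 7 to 9 calls. DESeq2 called 13 members, adding Flt1, Kdr and Angpt2 to the 10. Limma-voom and the fit without the filter each called 9, without Mmrn2. The fit of the 8 exercise libraries alone called 7, losing Esam, Ly6a, Mmrn2 and Slc38a5 and adding Kdr. Over all genes, the main fit called 1520, the 6 other alternatives 856 to 2140 and the fits without 1 library 975 to 1840.

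**Figure D3:**
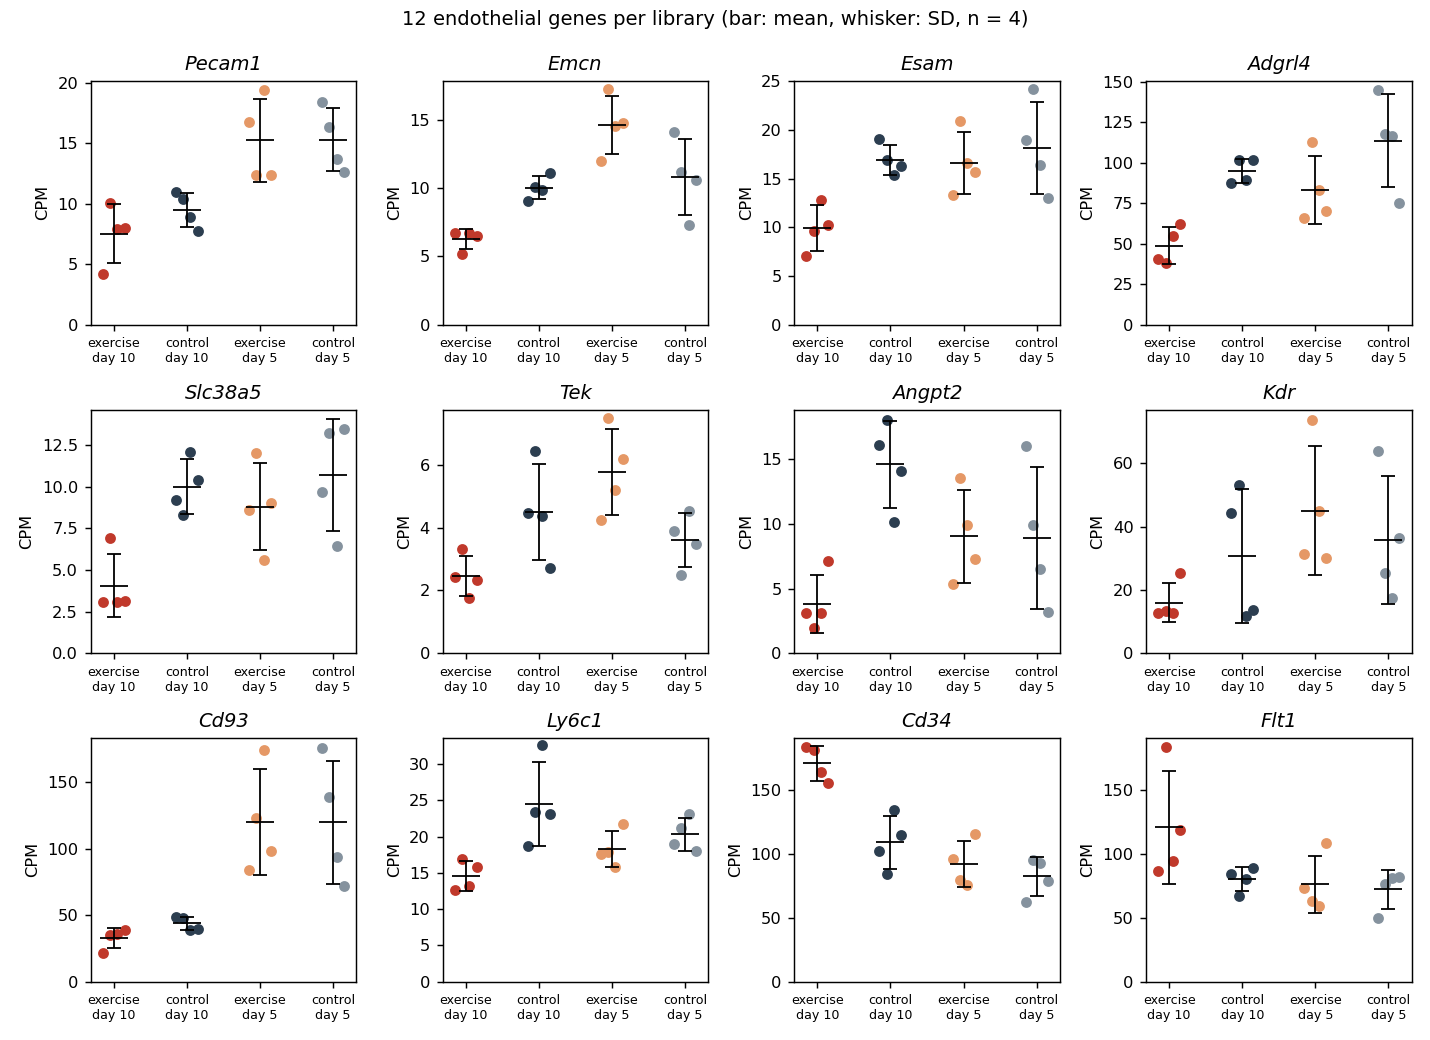
CPM of 12 members in each of the 16 libraries, from the left exercise day 10, control day 10, exercise day 5 and control day 5; points are libraries, the bar is the mean and the whisker the SD (n = 4 per group), and each y axis starts at 0. Emcn, Esam, Adgrl4, Slc38a5, Angpt2, Cd93 and Ly6c1 at day 10 lie lower in all exercise than in all control libraries, and Cd34 higher; Cd93 is lower at day 10 than at day 5 with either wheel.

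In control lesions, the same interval changed only 1 member by the test, Cd93. It had 48.5, 47.9, 39.0 and 39.9 CPM at day 10, against 175, 138, 93.7 and 71.9 CPM at day 5, without overlap (log2 fold change -1.45 ± 0.26, edgeR adjusted p = 0.00171). That is 2.94% of the members, where 12.3% of all 15096 genes were called, 6.64% lower and 5.66% higher. Of the 34 members, 20 were below 0, beside 48.8% of all genes, with a median of -0.10. Pecam1 had 7.78 to 10.9 CPM in control lesions at day 10, all below its 18.4, 16.3, 13.7 and 12.6 CPM at day 5 (-0.68 ± 0.23, edgeR adjusted p = 0.0599), and passed with DESeq2, with limma-voom and in a fit of the 8 control libraries alone. Ly6a, with 10.3 to 14 CPM at day 10 against 17.9, 14.6, 20.2 and 21.4 CPM at day 5, passed only in the fit of the 8 control libraries (edgeR adjusted p = 0.0868 over all 16).

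The other members that changed in exercise lesions had smaller differences in control lesions. Emcn had 9.04 to 11.1 CPM in control lesions at day 10, within its 14.1, 11.2, 7.31 and 10.6 CPM at day 5 (log2 fold change -0.11 ± 0.19). Tek, at 2.70 to 6.45 CPM at day 10 and 3.90, 2.50, 4.54 and 3.49 CPM at day 5, was at 0.32 ± 0.30. Esam, at 15.4 to 19.1 CPM at day 10 and 19, 24.2, 16.4 and 13 CPM at day 5, was at -0.10 ± 0.20. In none of these genes were the days separate in control lesions.

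Adgrl4, at 87.6 to 102 CPM in control lesions at day 10 and 145, 118, 117 and 75.2 CPM at day 5, was at -0.26 ± 0.20. Slc38a5, at 8.27 to 12.1 CPM at day 10 and 9.70, 13.2, 6.42 and 13.4 CPM at day 5, was at -0.10 ± 0.29. Mmrn2, at 2.61 to 3.44 CPM at day 10 and 5.01, 2.67, 5.26 and 4.65 CPM at day 5, was at -0.49 ± 0.30 (edgeR adjusted p = 0.316). Cd34 was above 0 here too, at 84.4 to 134 CPM at day 10 and 62.5, 95.6, 92.8 and 79.1 CPM at day 5 (0.40 ± 0.16, edgeR adjusted p = 0.109), with overlap.

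The other members described library by library did not pass the test between the days in control lesions, and Kdr and Cdh5 varied widely among the control lesions of day 5. Kdr had 64.1, 25.4, 17.5 and 36.3 CPM in control lesions at day 5, a spread as wide as that of day 10. Cdh5 had 32.8, 31.3, 14.2 and 12.0 CPM, also in 2 high and 2 low libraries. Flt1 had 49.8, 76.4, 81.5 and 82.4 CPM and Vwf 15.1, 12.3, 12.6 and 12.5 CPM. Erg, at 3.34, 1.83, 1.69 and 1.74 CPM, and Sox17, at 2.70, 3.08, 3.03 and 1.74 CPM, lay in the range of the other groups. Replicate 1 of control day 5 had the highest Cd93, Kdr, Cdh5, Erg and Vwf of its group and the highest mean over the members of all 16 libraries.

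**Figure D4:**
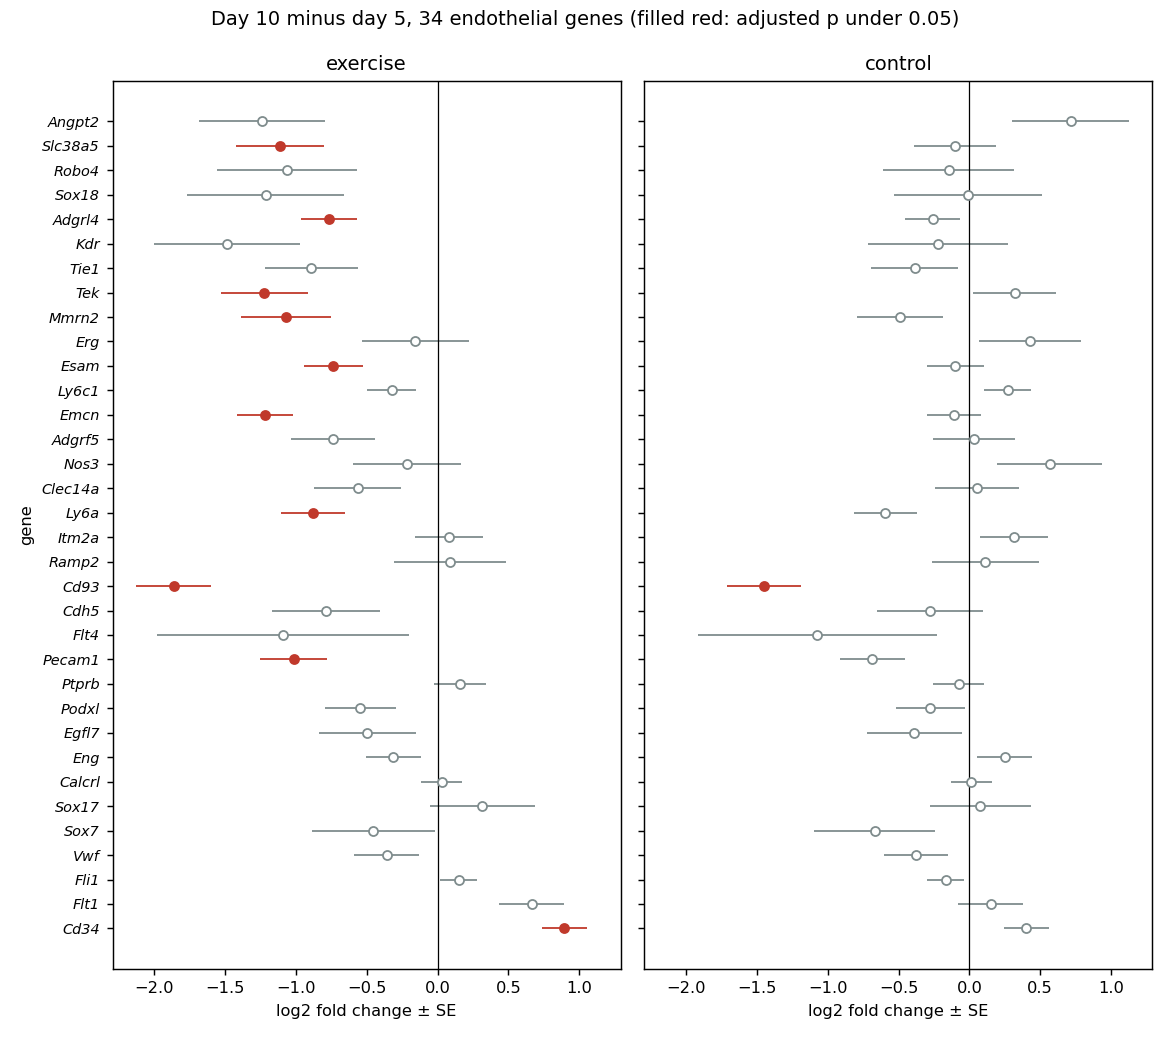
Log2 fold change of day 10 against day 5 for the 34 tested members in exercise (left) and control (right) lesions; bars show 1 SE of the edgeR fit and filled red points have an adjusted p under 0.05. In exercise lesions 9 members are called lower and Cd34 higher, and in control lesions Cd93 alone is called.

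A decrease that passed in exercise lesions and not in control lesions is not by itself a difference between them. The difference of the exercise effects between day 10 and day 5, which is also the difference of the day effects between exercise and control, was tested directly. EdgeR called 0 members and 0 of all genes (0%), and DESeq2 and limma-voom called 0 members. At an unadjusted p under 0.05, 6 members were lower (Emcn, Esam, Ly6c1, Tek, Angpt2 and Slc38a5) and Cd34 was higher, beside 4.35% and 4.77% of all genes. The differences were -1.11 ± 0.27 for Emcn, -1.54 ± 0.42 for Tek and -1.95 ± 0.61 for Angpt2 on the log2 scale, with edgeR adjusted p of 0.4, 0.423 and 0.455. Over the 34 members, 26 were below 0, beside 48.4% of all genes, with a median of -0.50.

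**Figure D5:**
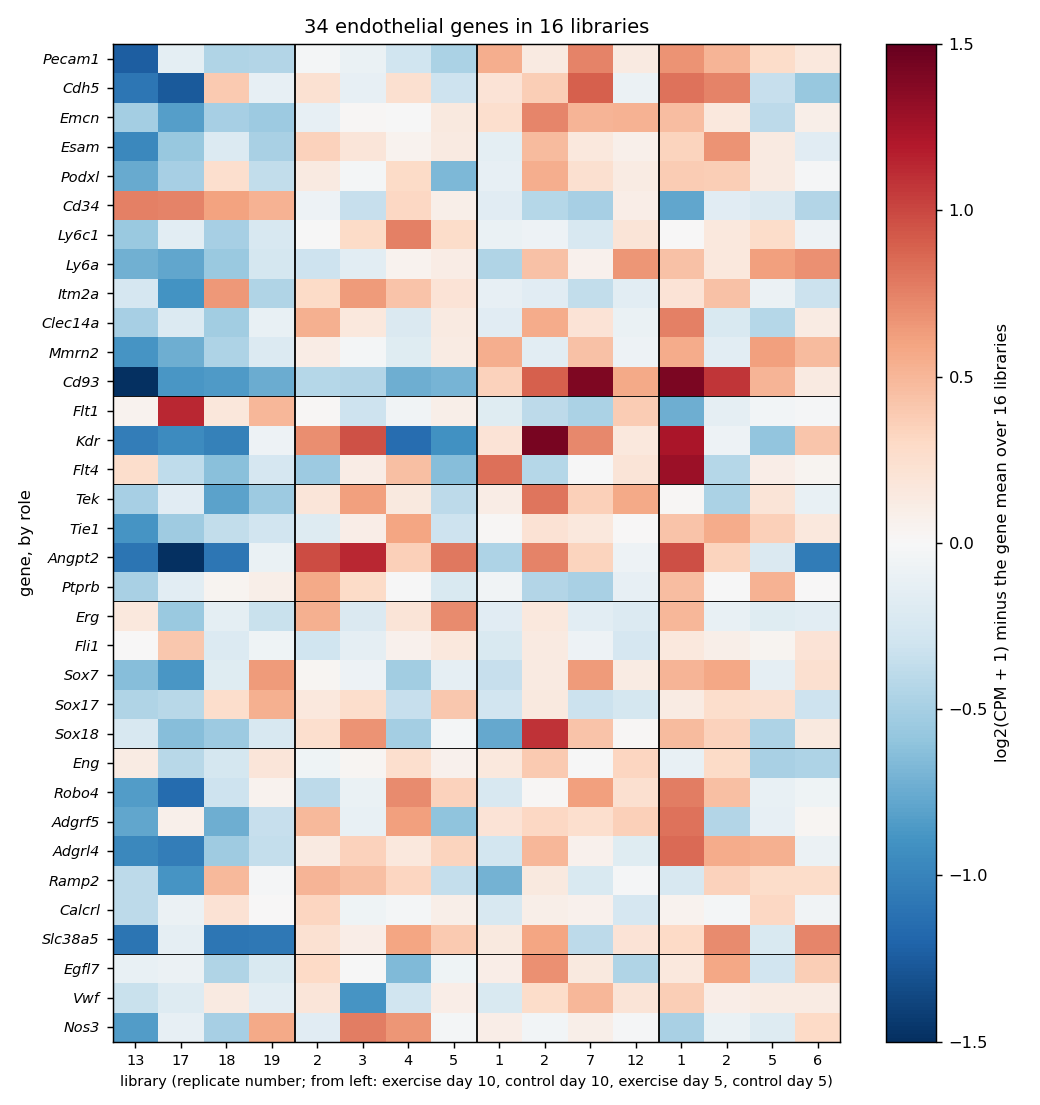
Each of the 34 tested members (rows, grouped by role) in each of the 16 libraries (columns, from the left exercise day 10, control day 10, exercise day 5 and control day 5); colour gives log2(CPM + 1) minus the gene's mean over the 16 libraries, from blue (below) to red (above), cut off at 1.5 either way. The exercise day 10 columns are blue for most rows and red for Cd34 and Flt1; Cd93 is red in all day 5 columns.

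Promoter sequences were looked up for the members that passed the test between the days. They show what stretches of DNA lie before RefSeq starts of the genes that fell and the gene that rose. RefSeq promoters on GRCm38.p6 were given for 18 of the 35 members (24 promoters), among them 5 of those called. The 250 bases before the RefSeq start of each are printed 5′ to 3′ on the gene's strand, with capitals for CCGGAA and CAGGAA (cores bound by ETS factors such as Erg and Fli1) and for AACAAT (a core bound by Sox factors), or their reverse complements. The Emcn promoter lies at chr3:137340828-137341077, Tek at chr4:94739039-94739288, Cd34 at chr1:194938571-194938820, Adgrl4 at chr3:151437632-151437881 and Slc38a5 at chrX:8271131-8271380, all on the plus strand.
Emcn: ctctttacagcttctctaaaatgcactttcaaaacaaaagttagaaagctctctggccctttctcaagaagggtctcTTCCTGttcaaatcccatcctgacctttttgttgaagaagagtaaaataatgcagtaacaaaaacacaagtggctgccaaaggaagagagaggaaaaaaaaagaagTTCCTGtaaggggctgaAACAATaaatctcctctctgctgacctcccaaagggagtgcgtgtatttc
Tek: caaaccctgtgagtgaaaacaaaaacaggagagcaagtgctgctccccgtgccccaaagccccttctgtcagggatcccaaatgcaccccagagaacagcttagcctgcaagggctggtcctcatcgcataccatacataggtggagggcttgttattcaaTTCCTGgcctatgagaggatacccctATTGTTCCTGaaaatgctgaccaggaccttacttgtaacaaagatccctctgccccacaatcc
Cd34: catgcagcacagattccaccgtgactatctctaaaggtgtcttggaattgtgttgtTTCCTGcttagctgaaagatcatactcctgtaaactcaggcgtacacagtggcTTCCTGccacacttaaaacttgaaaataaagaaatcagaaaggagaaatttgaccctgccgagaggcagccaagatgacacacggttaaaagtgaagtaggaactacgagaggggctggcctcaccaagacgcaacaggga
Adgrl4: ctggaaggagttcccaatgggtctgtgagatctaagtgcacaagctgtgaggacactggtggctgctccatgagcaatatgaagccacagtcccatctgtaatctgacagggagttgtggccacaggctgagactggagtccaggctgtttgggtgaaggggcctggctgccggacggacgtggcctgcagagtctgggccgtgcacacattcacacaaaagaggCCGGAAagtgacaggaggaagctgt
Slc38a5: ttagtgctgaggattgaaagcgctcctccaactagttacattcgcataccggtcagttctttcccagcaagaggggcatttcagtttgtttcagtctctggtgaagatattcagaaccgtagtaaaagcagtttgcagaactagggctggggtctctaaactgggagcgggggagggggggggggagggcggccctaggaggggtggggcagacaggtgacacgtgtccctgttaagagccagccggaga

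Emcn, Tek and Cd34 each had 2 matches to CAGGAA, all on the minus strand (TTCCTG), Adgrl4 had 1 to CCGGAA, and Slc38a5 had none. Emcn also had an AACAAT match, and in Tek the reverse complement of AACAAT overlaps the second TTCCTG. On either strand, CAGGAA was in 13 of the 24 member promoters (54.2%), beside 25.7% of 32851 promoters of the same length. CCGGAA was in 2 of 24 (8.33%, beside 12% of all), AACAAT in 4 of 24 (16.7%, beside 9.42%), and AGATAA, a core bound by GATA factors, in 2 of 24 (8.33%, beside 9.99%). A match is a description of the letters, not evidence of binding. Emcn, which fell, and Cd34, which rose, both carry CAGGAA matches, and Slc38a5 fell without any in its window. The annotation used for counting starts Slc38a5 at chrX:8271133, so that window lies almost wholly within the gene as counted.

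Other genes of the vessel wall were read from lists that hold none of the 35 members. At day 10, 9 of 10 tested arterial genes, 7 of 9 venous genes and 11 of 14 capillary and barrier genes had fitted values below 0 in exercise against control lesions, with medians of -0.84, -0.41 and -0.48. Of all genes, 47.9% were below 0. The 1 arterial gene above 0 was Notch4, with a log2 fold change of 1.32. It had 5.40 to 11.6 CPM in exercise lesions and 2.28 to 4.50 CPM in control lesions, without overlap. Of the genes in these 3 lists, 1 passed the test: Slco1a4, an organic anion transporter of the barrier, averaged 55.6 ± 14.9 CPM in exercise lesions and 101 ± 15 CPM in control lesions (SD, n = 4 each; log2 fold change -0.86 ± 0.16, edgeR adjusted p = 0.0401). Cldn5, the main claudin of the barrier's tight junctions, averaged 5.67 ± 1.03 CPM in exercise lesions and 11.6 ± 1.2 CPM in control lesions without overlap (-1.03 ± 0.21, edgeR adjusted p = 0.0544). At day 5 none of them passed (edgeR), with medians of 0.06, -0.04 and 0.07.

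Between the days, 3 of the 9 venous-list genes fell at day 10 in exercise lesions, where 4.9% of all genes fell. Ackr1, the chemokine-binding receptor of venules, averaged 8.72 ± 3.74 CPM at day 10 and 18.4 ± 6.7 CPM at day 5 (SD, n = 4 each; edgeR adjusted p = 0.023). Lcn2, a siderophore-binding protein that reactive astrocytes and neutrophils also make, averaged 6.37 ± 1.93 CPM at day 10 and 24.4 ± 12.9 CPM at day 5 (edgeR adjusted p = 0.00605). Selp, P-selectin, averaged 0.0954 ± 0.11 CPM at day 10 and 1.58 ± 0.93 CPM at day 5 (edgeR adjusted p = 0.0107). Selp was near the floor in exercise libraries of day 10, at 0.186, 0.195, 0 and 0 CPM. A count of 0 allowed up to 0.266 to 0.304 CPM there, from counting error alone. In control lesions the venous gene that passed was Nrp2, at 45.7 ± 7.8 CPM at day 10 and 63.3 ± 6.8 CPM at day 5 (edgeR adjusted p = 0.048). Of the 14 capillary and barrier genes, 1 fell in exercise lesions (Rgcc). In control lesions 3 rose, where 5.66% of all genes rose: Slco1a4, the monocarboxylate transporter Slc16a1, and Spock2. Slc16a1 reached 245 ± 10 CPM at day 10, against 151 ± 22 CPM at day 5, in control lesions (log2 fold change 0.70 ± 0.13, edgeR adjusted p = 0.00186). Fbln5, a protein of elastic fibres, was the arterial gene that passed, rising in control lesions by 1.01 ± 0.29 on the log2 scale (edgeR adjusted p = 0.03).

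Ligands of the VEGF and angiopoietin receptors gave few calls. Vegfa averaged 34.2 ± 10.1 CPM in exercise lesions and 20.5 ± 1.6 CPM in control lesions at day 10 (SD, n = 4 each); all 4 exercise values were higher, with a log2 fold change of 0.74 ± 0.20 and an edgeR adjusted p of 0.139. Angpt1, the ligand that activates Tie2, averaged 4.04 ± 0.83 CPM in exercise lesions and 5.72 ± 1.88 CPM in control lesions at day 10, and rose in control lesions between the days (0.82 ± 0.26, edgeR adjusted p = 0.0498). Of the 7 VEGF ligands and co-receptors, none passed between exercise and control at either day, and Nrp2 alone passed between the days. In the angiopoietin ligand and BMP9-ALK1 list, Smad7 rose at day 10 in exercise lesions (0.95 ± 0.19, edgeR adjusted p = 0.00364) and in control lesions (0.70 ± 0.18, 0.0166), and Tgfbr2 rose in exercise lesions (0.78 ± 0.14, 0.00178). Many other cells of the lesion make these genes. The tip cell list, of genes of sprouting vessels, gave 1 call, Plaur, lower at day 10 in control lesions (-0.69 ± 0.21, edgeR adjusted p = 0.0378).

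Other cells that could share a lesion with vessels moved as follows. Genes of mural cells, the pericytes and smooth muscle around vessels, summed to 458 to 524 CPM in exercise lesions and 614 to 634 CPM in control lesions at day 10. By their mean log2 CPM the groups overlapped, at 3.66 to 4.23 in exercise libraries and 4.22 to 4.37 in control libraries. Of 12 tested mural genes 10 were below 0 and 1 passed, where 47.9% of all genes were below 0 and 0.192% passed. The 1 was Vtn, at 50.8 ± 17.8 CPM in exercise lesions and 111 ± 16 CPM in control lesions (SD, n = 4 each; edgeR adjusted p = 0.048). The pericyte markers Pdgfrb and Rgs5 were at -0.33 ± 0.27 and -0.41 ± 0.15 (edgeR adjusted p 0.629 and 0.275). Fibroblast and meningeal genes summed to 1691 to 5043 CPM in exercise lesions and 4148 to 5530.2 CPM in control lesions. Of these, 6 of 10 were below 0, not far from the share of all genes, and Igf2 was the 1 that passed (-3.04 ± 0.58, edgeR adjusted p = 0.048). Their mean log2 CPM was low in exercise libraries 13 and 17, at 5.46 and 5.34, and higher in 18 and 19, at 7.03 and 6.75. Libraries 13 and 17 also had the 2 lowest endothelial means, 2.85 and 2.93, against 3.12 and 3.32 in libraries 18 and 19.

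Between the days, Vtn rose at day 10 in exercise lesions (log2 fold change 1.07 ± 0.23, edgeR adjusted p = 0.00653) and in control lesions (2.15 ± 0.23, 4.09e-05). Tagln, of smooth muscle, fell in exercise lesions (-1.02 ± 0.17, 0.00111) and in control lesions (-0.98 ± 0.17, 0.00107). The peptidase Anpep fell in exercise lesions (-1.0 ± 0.17, 0.00116), and Notch3, a receptor of mural cells, rose in control lesions (0.69 ± 0.22, 0.0471). Of the fibroblast and meningeal genes, Pdgfra, which oligodendrocyte precursors also make, rose in exercise lesions (0.56 ± 0.11, 0.00511) and control lesions (0.38 ± 0.11, 0.0354). Igf2 (3.64 ± 0.59, 0.00117) and Slc6a13 (2.20 ± 0.55, 0.0135) rose in control lesions.

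Leukocyte and platelet genes summed to 1455 to 2279.6 CPM in exercise lesions and 1275 to 1461 CPM in control lesions at day 10. Of 6 tested genes 5 were above 0, where 47.9% of all genes were below 0. Itgam, a myeloid integrin, passed, at 121 ± 45 CPM in exercise lesions and 59.4 ± 9.8 CPM in control lesions (SD, n = 4 each; edgeR adjusted p = 0.0424), and Ptprc, CD45, was at 0.21 ± 0.10 (edgeR adjusted p = 0.387). Between the days, Csf1r, the growth factor receptor of microglia and macrophages, rose at day 10 in exercise lesions (1.01 ± 0.11, edgeR adjusted p = 5.23e-05) and in control lesions (0.74 ± 0.11, 0.00037), Cd68 fell in both, and Ptprc and Aif1 rose in exercise lesions. The T cell marker Cd3e and the platelet marker Ppbp averaged at most 0.0729 and 0.039 CPM in any group, and the lymphatic markers Ccl21a and Mmrn1 at most 0.019 and 0.189 CPM. Of the lymphatic list, Prox1 rose at day 10 in exercise lesions (0.69 ± 0.16, edgeR adjusted p = 0.00944) and control lesions (1.0 ± 0.16, 0.000512), and Reln rose in control lesions (0.96 ± 0.23, 0.00983); glia or neurons also make both. The part of these other cells in the endothelial values was not tested.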

How the data were processed

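RNA from 16 laser-microdissected lesions was, per the labels' protocols, amplified, selected for poly(A) and sequenced strand-specifically from a single end (75 nt). The submitters' processing notes name GRCm38, FastQC 0.11.4, TopHat2 2.0.10, Bowtie 1.1.2 and DESeq2 1.12.4. The deposited values are raw counts per Ensembl gene on the gene's own strand, made with featureCounts 1.5.0-p1 per the file headers, beside the exon length of each gene. The authors' deposited tables give log2 fold changes, p-values and adjusted p-values of exercise against control at each day, in which the mean normalized signal per gene is also listed; their day 10 table holds 7 libraries. Amplification before sequencing can distort counts of rare RNAs, and the counts carry no molecular identifiers, so limits set by a count of 0 cover counting error only.

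Gene symbols came from GENCODE (GRCm38), which named 45143 of 46078 IDs, all 35 members included. EdgeR 4.0.16 (R 4.3.3) was fitted on all 16 libraries with TMM scaling, filterByExpr (minimum count 10, minimum total 15) and a robust quasi-likelihood model with 1 mean per group (12 residual degrees of freedom). P-values were adjusted by Benjamini-Hochberg over all 15096 genes, with a threshold of 0.05. The script was tested on simulated data. CPM are counts scaled to the TMM-adjusted library size; mean log2 CPM used a prior count of 2. DESeq2 1.42.0, limma-voom (limma 3.58.1), other scaling, no filter, the 8 libraries compared, each library left out and a replicate block were alternatives. The members and lists were chosen with earlier results of these data known. Values are given per library for members that passed any test and for Pecam1, Cdh5, Flt1, Kdr, Tek, Erg, Sox17, Slc38a5, Vwf and Plvap; those given for Angpt2 were chosen after its values were seen. No 2 libraries of a group agreed within counting noise (smallest chi-square per degree of freedom 9.543).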

Additional observations from a re-analysis of the deposited data

Results flagged for a closer look

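In groups of 4 libraries, a library was singled out where its distance to the nearest of the others was large against the range of its group, by Dixon's criterion at 95%. Of 136 combinations of member and group, 8 met it, where chance gives about 6.8 (1 in 20). In exercise lesions at day 10, replicate 17 had 5.17 CPM of Emcn where the others had 6.49 to 6.74 CPM, and 6.93 CPM of Slc38a5 where the others had 3.07 to 3.15 CPM. Replicate 19 of the same group had 25.4 CPM of Kdr, with the others at 12.6 to 13.5 CPM. In exercise lesions at day 5, replicate 2 had 2.41 CPM of Erg (others 1.66 to 1.74 CPM) and 2.79 CPM of Sox17 (others 1.74 to 1.84 CPM). In control lesions at day 5, replicate 1 had 3.34 CPM of Erg (others 1.69 to 1.83 CPM), 15.1 CPM of Vwf (others 12.3 to 12.6 CPM) and 2.39 CPM of Ramp2 (others 3.83 to 4.08 CPM).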

How the results depend on the processing

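The number of members called between exercise and control at day 10 was 0 with edgeR, 1 with upper-quartile scaling, 1 without the filter on low counts, 6 with DESeq2 and 0 to 2 with 1 library left out (2 without exercise replicate 18). Between the days in exercise lesions it was 10, and 5 to 9 with 1 library left out (5 without exercise replicate 2 of day 5). Between the days in control lesions it was 1, 2 with DESeq2, 2 with limma-voom, 3 in the 8 control libraries alone, and 0 without Cd34, Fli1, Flt1 and Cd93, a check chosen after seeing the data whose own construction removes Cd93. At day 5 and for the difference of the exercise effects it was 0 throughout. The cause of the other changes was not tested. The median over the members at day 10 stayed between -0.62 and -0.45. Of 1253 values of single members recomputed, 1211 kept their side of the threshold, 26 lost it, 16 gained it and 0 called values changed sign.

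Over all genes, calls at day 10 numbered 29 with edgeR, 227 with DESeq2, 0 in the 8 libraries alone and 0 to 133 with 1 library left out. At day 5 they numbered 0, 80 with DESeq2 and up to 1 with 1 library left out; for the difference of effects, 0, 18 with DESeq2 and up to 1. Between the days they were 1520 in exercise lesions, 856 in the 8 libraries alone and 975 without exercise replicate 7 of day 5. The 6 other alternatives ran from 856 to 2140 there. In control lesions they were 1858, and 588 to 2410 in the 7 other alternatives, replicate block included. Deviations of libraries with the same replicate number correlated at 0.0687 and -0.0293 at day 5 and at 0.0561 and 0.0173 between control days. With so few pairs, these values cannot exclude that a shared number pairs libraries. With a replicate block on the 7 libraries concerned, 0 members were called at day 5 and 1 member and 588 genes between the control days. That fit holds few libraries, so its 0 at day 5 cannot exclude a difference. Day 10 groups share no number. Low counts limit Plvap and Flt4 most, with 92 and 147 counts over all libraries. Sox18 (315), Erg (391) and Robo4 (414) come next.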
